A study of Drosophila melanogaster with 12 samples.

Results

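Cold stress was examined in S2R+ cells, a line of cultured Drosophila melanogaster cells of embryonic origin with hemocyte-like properties, by comparing 3 arrays from cells kept at 11 °C with 3 arrays from cells kept at 25 °C. These 6 arrays are part of a series of 12, in which cells spent their last 24 h before RNA isolation at 1 of 4 temperatures, 11, 14, 25 and 30 °C (3 biological replicates each, after a first 24 h in culture), and the arrays at 14 °C were used here to ask what set 11 °C apart from milder cold. All cells were unmodified and grew in the same serum-containing medium, and the plated number of cells was 4500000 at 11 °C, 3500000 at 14 °C, 1700000 at 25 °C and 1500000 at 30 °C, set to give like densities at harvest, so that plating number varied together with temperature. RNA was labelled with Cy3 and hybridised to Agilent oligonucleotide arrays. The comparison was made on 8895 genes, which are the genes with a RefSeq symbol that passed the detection filter and lie outside 4 lists of cell cycle genes, heat shock proteins and cytosolic chaperones (285 genes). They are part of 9180 RefSeq genes tested.

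Flies cannot hold their body temperature, and their cells meet cold as a general slowing of enzymes, a stiffening of membranes and a disturbed ion gradient across them. Insects in the cold are known to change membrane lipids, ion and water transport, the cytoskeleton and metabolites such as proline and glycogen. Hemocytes are the blood cells of the fly, which secrete extracellular matrix, take up debris and make antimicrobial peptides.

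For 2 genes that rose strongly at 11 °C, CG13694 and Lip4, the study designed primers for quantitative RT-PCR in a repeat of the experiment. The signals given below came from array probes and not from these primers. Both genes lie on chromosome arm 2L. The primers are shown 5′ to 3′ and are 20 bases each, the first pair for CG13694 and the second pair for Lip4.
FM15: gggatgattctcctaccagc
FM16: ctgttgtcaagctgatgtcc
FM17: ggatttcatttggggcatcg
FM18: cgcattatttccagcattcg

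Values are normalised log2 signals, in which a difference of 1 is a 2-fold difference, and a gene was called when it differed by 2-fold or more with an adjusted p below 0.01 (limma, Benjamini-Hochberg over all 15114 features tested). Of the 8895 genes, 746 (8.39%) were called higher and 983 (11.1%) lower at 11 °C than at 25 °C, so that 43.1% of calls were higher. In the cell cycle and chaperone lists left aside, 2 of 285 genes (0.702%) were called higher and 143 (50.2%) lower. The median change of all genes was -0.25, and calls, single changes and folds are given without subtracting that shift. The split of calls depended on it: it was 999 higher and 593 lower (62.8% higher) when arrays were scaled to their 75th percentile, 872 and 716 (54.9%) after quantile normalisation, and 1043 and 517 (66.9%) with the spike-in controls. All 3 arrays at 11 °C lay on 1 side of all 3 at 25 °C for 56.4% of the 8895 genes.

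The called genes differed in abundance. Genes called higher had a median signal of 6.61 at 11 °C and 4.51 at 25 °C, whereas genes called lower had 8.67 at 11 °C and 10.18 at 25 °C, beside 10.17 at 25 °C for all 8895 genes. Of the 746 genes called higher, 354 were well above background on all 6 arrays and 121 on the arrays at 11 °C but on none at 25 °C. Of the 983 called lower, 756 were well above background on all 6 arrays and 33 at 25 °C but not at 11 °C. Among those measured on all 6 arrays, a change of 8-fold or more was seen for 21 genes that rose and 9 that fell.

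**Figure D1:**
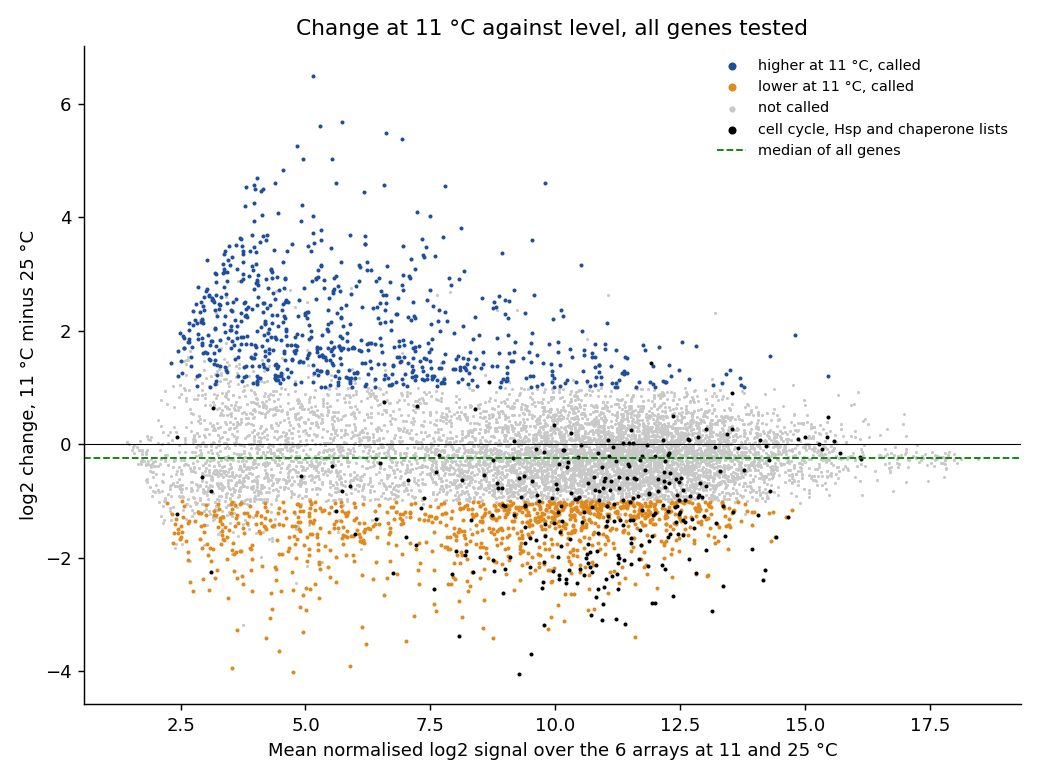
The log2 change at 11 °C relative to 25 °C is plotted against the mean normalised log2 signal over the 6 arrays for each gene tested, with called genes in blue (746 higher) and orange (983 lower), uncalled genes in grey, cell cycle, Hsp and chaperone genes in black and the median of all genes (-0.25) as a dashed line. Most large rises lie at low signal, while falls spread over the whole range.

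The arrays lay on 3 slides, and temperature and slide were partly bound together: replicate 1 of every temperature shared slide 1, whereas replicates 2 and 3 at 11 °C lay on another slide than those at 25 °C. When replicates 2 and 3 alone were fitted, 788 genes were called higher and 827 lower. On slide 1, which that fit did not use, 760 (96.4%) of the 788 were higher at 11 °C and 800 (96.7%) of the 827 were lower, beside 29.7% and 70.3% of all genes. The change there was 2-fold or more for 557 (70.7%) and 706 (85.4%) of them. With the slide as a block in the fit, 661 genes were called higher and 1329 lower.

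The largest rises among genes measured on all 6 arrays belonged to genes of varied roles. CG13694 had signals of 11.84, 12.03 and 12.42 at 11 °C, against 7.37, 7.50 and 7.62 at 25 °C, which is a 24.3-fold rise (log2 change 4.60 ± 0.18 SE, adjusted p = 9.87e-08). CG6142 had 10.64, 10.16 and 9.38 at 11 °C, against 5.69, 5.32 and 5.52 at 25 °C, a 23.5-fold rise (log2 change 4.55 ± 0.25 SE). The groups lay far apart for both, and the arrays at 11 °C spread more for CG6142 than for CG13694. Tat, which encodes the tyrosine aminotransferase that starts tyrosine breakdown, had 8.96, 9.33 and 9.57 at 11 °C, against 5.43, 4.97 and 5.15 at 25 °C, a 17.1-fold rise (adjusted p = 1.14e-07). Lip4, a lipase gene, had 11.16, 11.29 and 11.60 at 11 °C, against 7.94, 7.61 and 7.67 at 25 °C, a 12.2-fold rise. Dred (16.3-fold), CG30054 (14.1-fold), the mucin gene Muc30E (12.6-fold), the glutathione S-transferase gene GstD7 (12.3-fold), SmydA-5, which encodes a SET and MYND domain protein (11.6-fold), and Rgk1, which encodes a small GTPase of the Rad and Gem family (11.3-fold), completed the 10 largest. Genes with overlapping groups were not eligible for these 10.

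A further set of genes was well above background on all 3 arrays at 11 °C and on none at 25 °C, so only a lower bound of the rise can be given, computed against the lowest signal that counts as well above background on the arrays at 25 °C. alpha-Est8, a carboxylesterase gene, had 8.03, 8.50 and 9.19 at 11 °C and was at least 28.8-fold higher than at 25 °C (adjusted p = 1.56e-07). CG3999, which encodes the glycine decarboxylase of the glycine cleavage system, had 9.12, 8.28 and 7.82 at 11 °C and was at least 25.6-fold higher (adjusted p = 1.99e-07). CG14565 was at least 20.8-fold higher, and FASN2, a fatty acid synthase gene, at least 18-fold higher. Here too, only genes whose lowest array at 11 °C was above the highest at 25 °C were considered.

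The largest falls among genes measured on all 6 arrays were smaller than the largest rises. GstE11, a glutathione S-transferase gene, had 4.35, 5.63 and 5.86 at 11 °C, against 9.41, 8.51 and 8.35 at 25 °C, which is an 11.1-fold lower level (log2 change -3.47 ± 0.41 SE, adjusted p = 5.40e-05). The array of replicate 1 was the lowest at 11 °C and the highest at 25 °C for this gene. CG31075, of the aldehyde dehydrogenase family, had 9.71, 9.62 and 10.41 at 11 °C, against 13.23, 13.44 and 13.23 at 25 °C, a 10.5-fold lower level (adjusted p = 5.18e-07). timeout, a relative of the clock gene timeless with a role in chromosome maintenance, had 8.04, 8.41 and 8.72 at 11 °C, against 11.56, 11.36 and 11.42 at 25 °C (8.29-fold lower). It was meant for the cell cycle lists and stayed outside them because the name written there did not match its current symbol. The names lat, ald, cdc2, rnh2 and SA in those lists matched no symbol either, so their genes may also be among those compared. The genes named as the largest falls were chosen among those with groups that did not overlap. topi, a zinc finger gene known for its part in meiosis in the testis, was 9.41-fold lower, and CG13690 (10.7-fold), CG9752 (9.56-fold), CG11788 (8.64-fold), CG34315 (8.25-fold), CG6813 (8.14-fold) and CG4238 (7.69-fold) were lower to a like extent. Among genes well above background at 25 °C and on no array at 11 °C, speck, which encodes an arylalkylamine N-acetyltransferase, was at least 8.40-fold lower, PICK1, which encodes a PDZ and BAR domain protein, at least 7.22-fold, CG16736 at least 6.06-fold and CG30099 at least 4.64-fold.

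**Figure D2:**
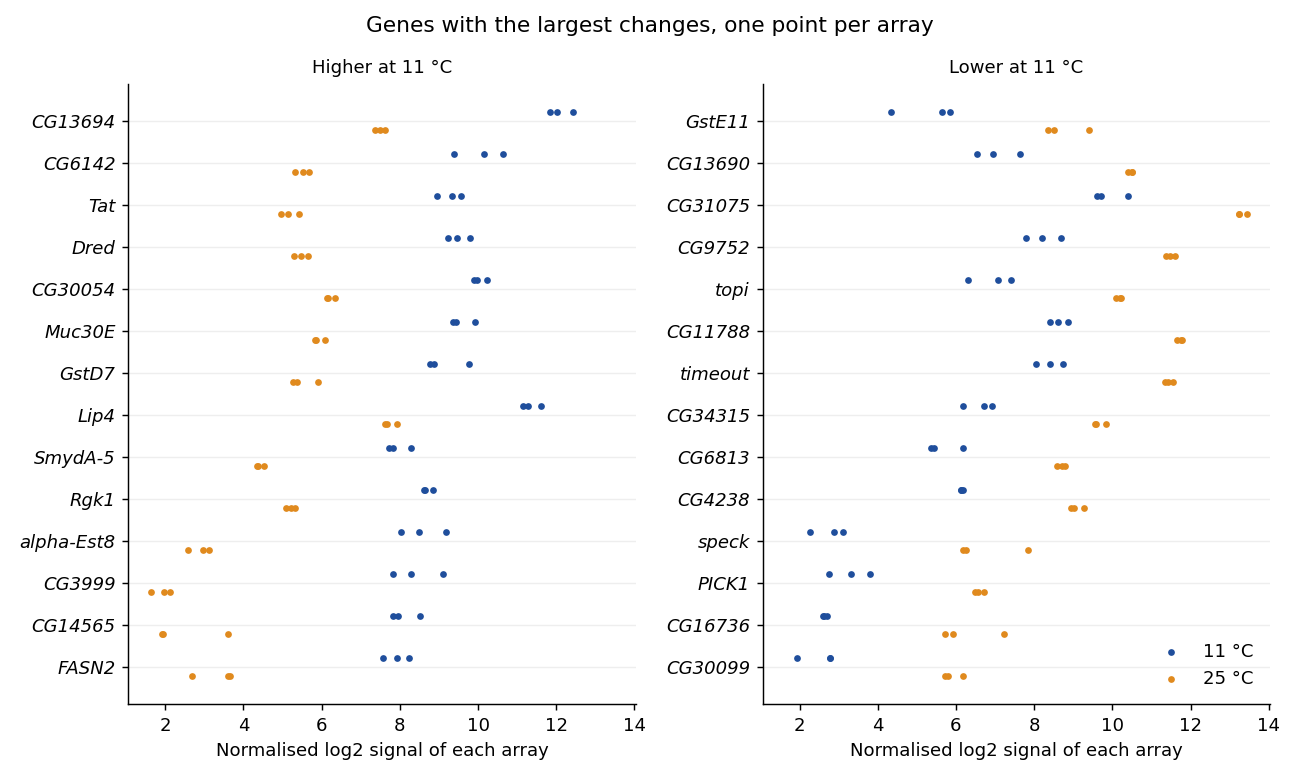
Each point is the normalised log2 signal of 1 array (blue, 11 °C; orange, 25 °C; 3 arrays each) for the genes with the largest rises (left) and falls (right), with genes measured in only 1 of the groups in the lowest 4 rows. Genes were drawn only if the points of the groups did not overlap, and CG13694 reaches 12.42 at 11 °C against at most 7.62 at 25 °C.

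To follow groups of related genes, 23 lists were described by the number of members called and by the median change, beside the 8.39% called higher, the 11.1% called lower and the median of -0.25 over all genes. The largest share called higher was in the list of antimicrobial and humoral immunity, and the lowest medians were those of the alpha-esterases, the mitochondrial ribosome and oxidative phosphorylation.

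**Figure D3:**
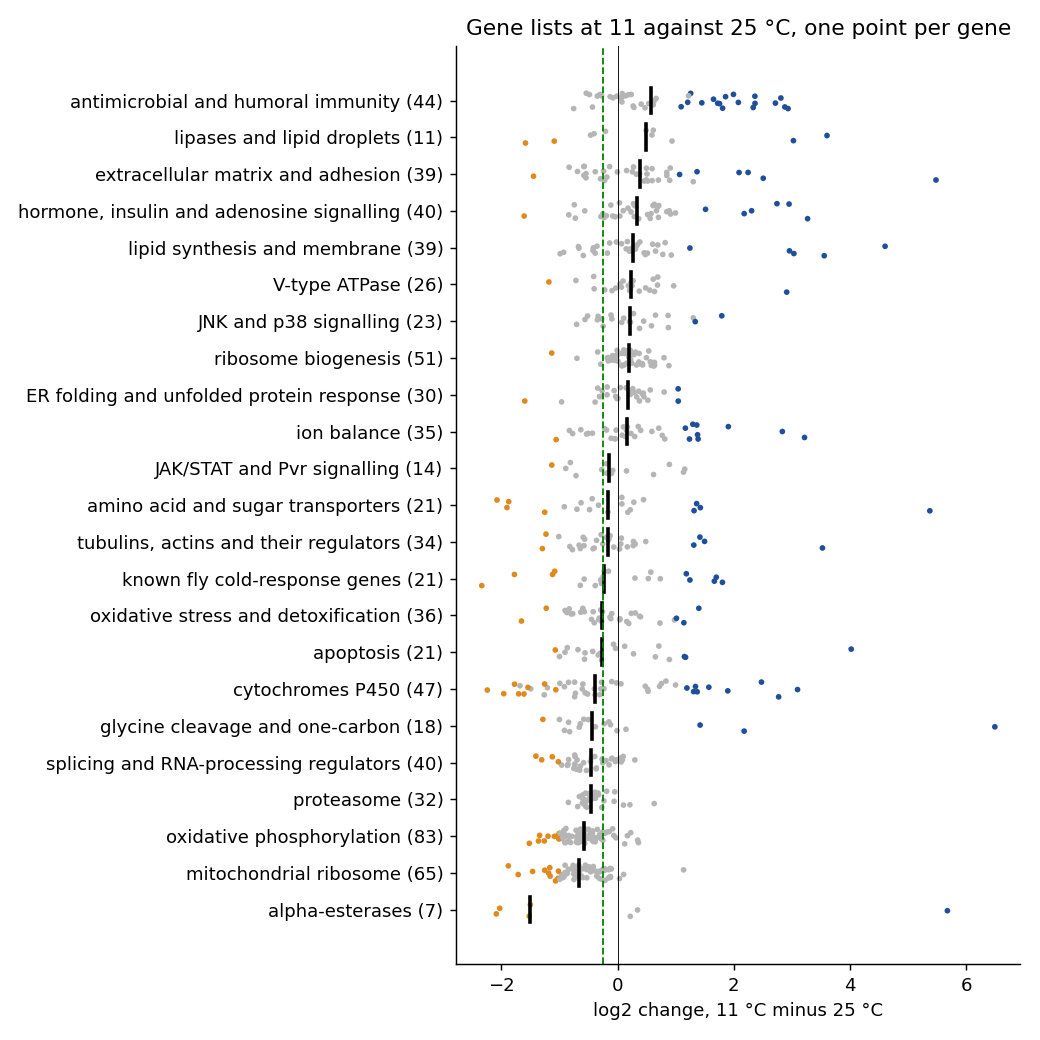
The log2 change at 11 °C relative to 25 °C is shown for each measured gene of 23 lists (number of genes in parentheses), with genes called higher in blue, genes called lower in orange, the list median as a black bar and the median of all genes (-0.25) as a dashed line. The immunity list has 18 blue points and no orange one, and the mitochondrial ribosome list has 10 orange points and no blue one.

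Antimicrobial peptide genes rose, and few of the recognition and signalling genes measured with them passed the test. Of 44 measured genes of antimicrobial and humoral immunity, 18 rose and none fell, and the median change was 0.58, which is 0.82 above that of all genes. The count was also 18 and 0 with 75th percentile scaling, with spike-in scaling and with the slide as a block. It was 8 and 0 with another background correction and 11 and 0 when only the 6 arrays entered the fit. By role, 15 of 17 peptide and effector genes rose (median 1.99), against 2 of 13 recognition genes (median 0.27) and 1 of 14 genes of Toll and Imd signalling (median 0.08), the pathways that carry the signal from microbial cell walls to the NF-κB factors of the fly. Of the 54 genes in the list, 44 passed the detection filter, which a gene could pass through the arrays of 1 temperature alone. Of the 15 effector genes that rose, 6 were well above background on all 6 arrays. The shares by role therefore include dim genes that may have entered through the cold arrays.

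CecA1, a cecropin gene, had signals of 11.13, 10.44 and 10.01 at 11 °C, against 7.37, 8.03 and 8.04 at 25 °C (6.57-fold higher, adjusted p = 2.68e-05). CecA2 rose 7.01-fold, with 5.39, 5.33 and 5.85 at 25 °C and no array at 11 °C below 7.79. These genes are near-identical in sequence, as are AttA and AttB, so their signals may not be separate. Drs, the gene of the antifungal peptide drosomycin, had 8.67, 9.19 and 8.99 at 11 °C, against 6.58, 6.54 and 6.73 at 25 °C (5.04-fold higher, adjusted p = 6.84e-07), with the least spread of the group. TotM, a stress peptide gene of the Turandot family, had 8.44, 7.59 and 7.53 at 11 °C, against 5.79, 4.85 and 4.29 at 25 °C (7.35-fold higher). AttD (log2 change 1.86) and edin (1.99) were also measured on all 6 arrays and rose, but their arrays at 11 °C spread widely, with 10.45, 8.97 and 8.46 for AttD and 7.52, 9.25 and 9.29 for edin. AttB had 7.42, 6.60 and 6.04 at 11 °C and was well above background on 1 array at 25 °C.

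The other effector genes that rose, among them Mtk, DptA, AttC and Dro, had low signals and were not well above background on some or all arrays at 25 °C. CecC, with 9.35, 8.66 and 8.98 at 11 °C, against 8.76, 9.07 and 9.00 at 25 °C, and the lysozyme gene LysX (log2 change 0.62) were not called. All 3 arrays at 11 °C lay above all 3 at 25 °C for 15 of the 17 effector genes, while 56.4% of the 8895 genes had no overlap in either direction. Replicate 1 had the highest of the 3 signals at 11 °C for 14 of the 17. Without it the median of the whole immunity list was 0.41. Within slide 1 all 17 genes were higher at 11 °C, beside 29.7% of all genes, and on the other slides 16 of the 17 were.

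Among genes that act before the peptides, pirk, a negative regulator of Imd signalling, rose 3.50-fold, with 13.89, 13.26 and 13.18 at 11 °C, against 12.62, 11.15 and 11.14 at 25 °C. PGRP-LB, an amidase gene that lowers the amount of active peptidoglycan, rose by 1.72 on the log2 scale, and PGRP-SB1, also an amidase gene, was called higher with a log2 change of 1.76. Other genes that limit these pathways were not called, with log2 changes of 0.61 for cact, 0.47 for PGRP-LF, -0.08 for PGRP-SC1a and 1.22 for PGRP-SC2. The receptor gene PGRP-LC (log2 change -0.43), the adaptor gene imd (0.08) and the NF-κB genes Rel (0.19), dl (0.08) and Dif (-0.75) were not called.

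**Figure D4:**
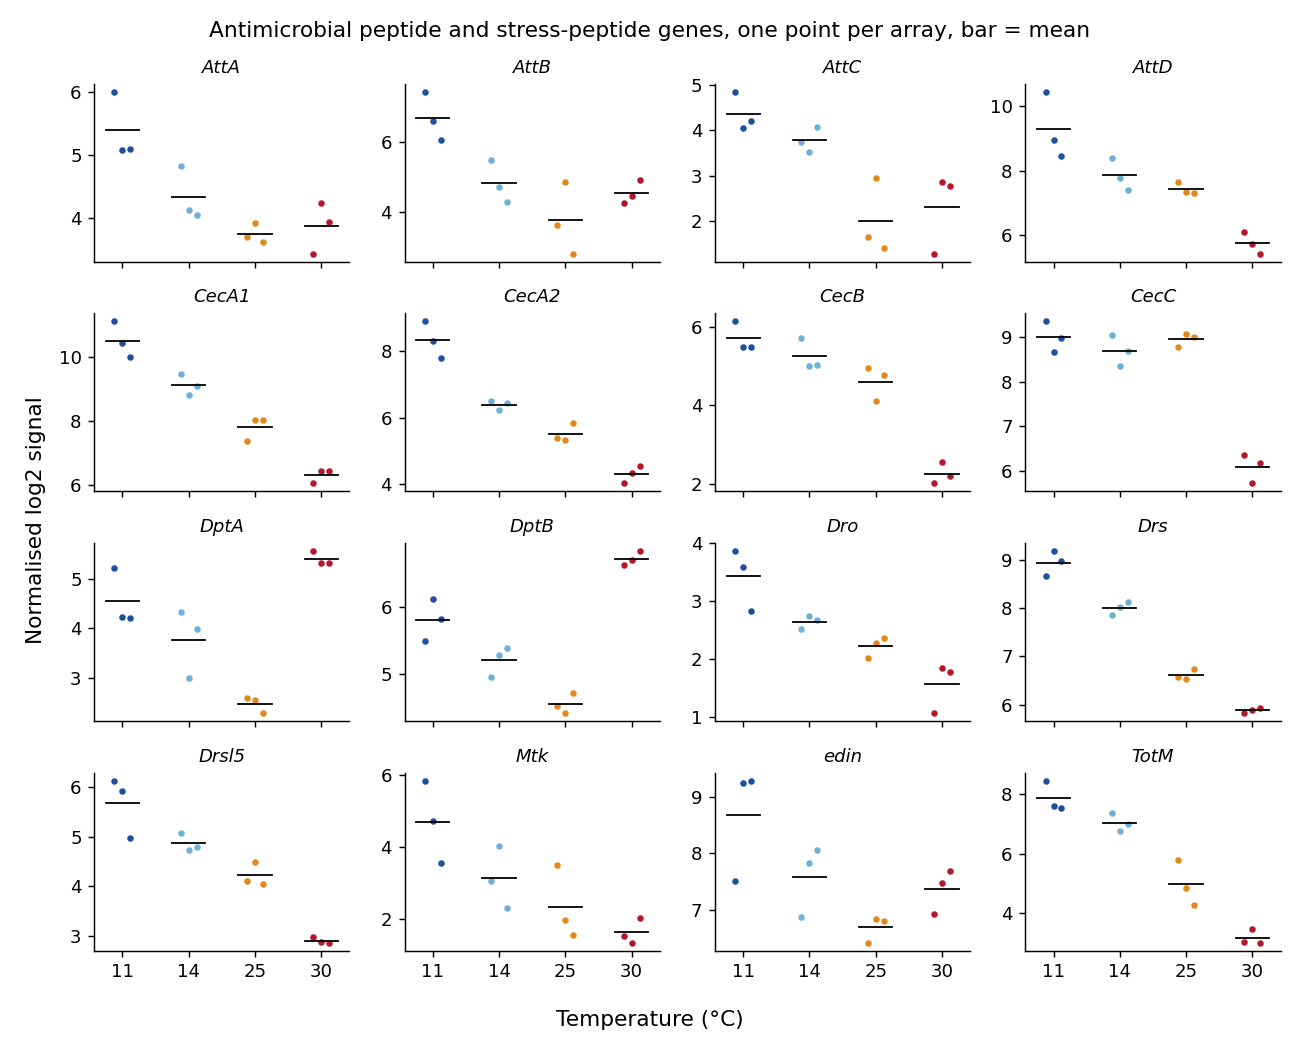
Normalised log2 signals of 16 of the 17 effector genes (LysX is not drawn) are plotted by temperature from 11 to 30 °C, with 1 point per array and the mean as a bar. The arrays at 11 °C lie above those at 25 °C for all genes but CecC, and CecA1 reaches 11.13 at 11 °C against at most 8.04 at 25 °C. Of the 8895 genes, 56.4% had no overlap in either direction.

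Genes of extracellular matrix and cell adhesion, products that hemocytes are known for, were called higher in 6 of 39 and lower in 1 of 39 measured genes, with a median change of 0.38. PH4alphaSG1, a prolyl 4-hydroxylase subunit gene, had 9.20, 9.32 and 9.54 at 11 °C, against 4.17, 4.37 and 3.08 at 25 °C (log2 change 5.48 ± 0.30 SE). On no array at 25 °C were both of its 2 probes well above background. The adhesion gene Fas2 had 7.02, 6.96 and 6.41 at 11 °C, against 4.91, 4.58 and 4.63 at 25 °C, a 4.26-fold rise (adjusted p = 6.20e-06). The related Fas3 (log2 change 2.51) and the integrin gene scb (2.25) rose as well, with some probes or arrays at 25 °C not well above background. The matrix genes Ppn, which encodes papilin (2.58-fold), and Tig, which encodes the integrin ligand tiggrin (2.10-fold), rose at high signals. mspo was the member that fell. Without replicate 1 at 25 °C 10 genes were called higher and 1 lower, and with 75th percentile or spike-in scaling it was 11 and 1.

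Of 23 genes of JNK and p38 signalling, the stress kinase pathways, Ets21C and Atf3, both transcription factor genes, rose and none fell (median 0.21). The share called higher, 8.70%, was near the 8.39% over all genes. Ets21C had 11.58, 10.85 and 10.43 at 11 °C, against 9.96, 8.75 and 8.77 at 25 °C (3.47-fold higher, adjusted p = 1.37e-03), and its adjusted p was 0.015 when only the 6 arrays entered the fit. Replicate 1 was the highest array at both temperatures. Without replicate 1 at 25 °C 4 genes of the list were called higher. In the list of JAK/STAT and Pvr signalling the receptor gene Pvr alone was called of 14 genes, 2.19-fold lower, and its log2 change of -1.13 became -0.89 with 75th percentile scaling, which is not past 2-fold. The feedback regulator gene Socs36E (1.16) and the ligand gene Pvf2 (1.13) rose past 2-fold without being called. The ligand genes Pvf3 (0.89) and upd3 (0.62) were not called either. Of the 14 genes, 5 had a positive and 9 a negative change. The median of that list, -0.15, turned positive with that scaling, at 0.10, and without replicate 1 at 25 °C 3 members were called higher and 1 lower.

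Lipid genes moved in both directions, with the largest rise in FASN2. Of 39 measured genes of lipid synthesis and membrane composition, 5 rose and none fell (median 0.27). Beside FASN2, the desaturase family gene CG9747 was at least 4.44-fold higher, with 6.78, 5.97 and 4.88 at 11 °C, and the acyltransferase gene Agpat4 at least 4.37-fold higher, with 5.96, 5.93 and 5.68. Neither was well above background on an array at 25 °C. Pcyt2, an enzyme gene of phosphatidylcholine synthesis, had 6.91, 7.13 and 7.25 at 11 °C, against 4.88, 3.41 and 4.13 at 25 °C, where 2 of 3 arrays were well above background. Desat2, a fatty acid desaturase gene, rose 2.37-fold, whereas Desat1, the main desaturase gene of the fly, had 12.57, 12.47 and 12.58 at 11 °C and 12.72, 12.77 and 12.64 at 25 °C and was not called. Among 11 genes of lipases and lipid droplets, Lip4 and mag, a digestive lipase gene (at least 2.20-fold), rose, and Lip3 (log2 change -1.58) and the perilipin gene Lsd-1 (-1.09) fell. The list of lipid synthesis gave 7 higher and 1 lower without replicate 1 at 25 °C, and without replicate 1 at 11 °C Lsd-1 changed by -0.96, which is under 2-fold.

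Genes of ion and water balance were called higher in 9 of 35 and lower in 1, with a median of 0.17. CAH1, a carbonic anhydrase gene, had 7.95, 7.74 and 7.81 at 11 °C, against 4.24, 4.39 and 5.23 at 25 °C (9.30-fold higher, adjusted p = 1.37e-06), where 2 of 3 arrays were well above background. NKCC, which encodes a cotransporter of sodium, potassium and chloride, had 6.81, 6.22 and 6.91 at 11 °C, against 5.46, 4.48 and 4.28 at 25 °C (3.75-fold higher). The groups did not overlap for either gene. The aquaporin gene Prip had 11.75, 11.89 and 12.38 at 11 °C, against 10.73, 10.83 and 10.75 at 25 °C (2.36-fold higher, adjusted p = 9.67e-05). The sodium/proton exchanger gene Nhe1 (2.46-fold) and the calcium pump gene SPoCk (2.57-fold) were also measured on all 6 arrays and rose. CAH2 had 7.12, 5.59 and 3.56 at 11 °C, and its call (adjusted p = 6.18e-03) was lost on leaving out any of the 6 arrays except replicate 3 at 11 °C (adjusted p = 0.015 to 0.020). Without replicate 1 at 11 °C, and also without replicate 3 at 25 °C, 6 genes of the list were called higher and none lower.

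Amino acid and sugar transporters changed in both directions, with 4 of 21 genes higher and 4 lower (median -0.16, which turned to 0.08 with 75th percentile scaling). CG7888, an amino acid transporter gene, had 10.19, 9.58 and 9.10 at 11 °C, against 5.97, 3.09 and 3.70 at 25 °C (adjusted p = 2.85e-05), where replicate 1 stood above the others and 2 of 3 arrays were well above background. The sugar transporter gene sut1 had 5.11, 5.16 and 5.88 at 11 °C, against 7.45, 7.56 and 7.36 at 25 °C (4.21-fold lower, adjusted p = 1.21e-05), and CG16700 was 3.66-fold lower. Of 26 subunit genes of the V-type ATPase, the proton pump of endosomes and lysosomes, Vha68-3 was at least 3.82-fold higher and Vha16-5 was called lower (log2 change -1.18). In that list 19 changes were positive and 7 negative, and the median of 0.22 lay 0.47 above that of all genes. The median was 0.52 with spike-in scaling. The study, from which these arrays come, had reported these genes as considerably raised by cool in S2R+ cells, so their direction is not independent evidence. The call of Vha16-5 was lost without replicate 1 or 2 at 11 °C and without replicate 2 or 3 at 25 °C.

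Genes of hormone, insulin and adenosine signalling were called higher in 6 of 40 and lower in 1 (median 0.33). The study had named Akh, InR, Pdk1, Hnf4, Mef2, ewg and Pfrx among genes raised by cool in S2R+ cells and another line. These genes are in the list, so its count and median are not independent evidence of a direction. Akh, the gene of adipokinetic hormone, which mobilises stored energy in insects, had 8.93, 8.70 and 8.64 at 11 °C, against 5.83, 5.30 and 5.33 at 25 °C (9.65-fold higher, adjusted p = 1.71e-07). The adenosine receptor gene AdoR was at least 4.53-fold higher, with 6.64, 6.12 and 4.97 at 11 °C and no array well above background at 25 °C. Of the other 7 genes of adenosine handling in the list, 2 rose, and Adgf-A (log2 change 0.85), Adgf-A2 (0.69), Adgf-C (0.10), Ent1 (0.04) and Ent2 (-0.84) were not called. Ent3, a nucleoside transporter gene, had 6.98, 6.86 and 6.49 at 11 °C, against 4.03, 5.53 and 3.86 at 25 °C (4.95-fold higher), and Adgf-D, of the adenosine deaminase growth factor family, had 6.59, 7.07 and 7.17 at 11 °C, against 5.33, 3.38 and 3.89 at 25 °C. foxo, the transcription factor gene restrained by insulin signalling, had 8.11, 7.77 and 7.84 at 11 °C, against 6.75, 6.35 and 6.08 at 25 °C (2.86-fold higher, adjusted p = 7.47e-05). The probes of ewg did not agree, with changes between -0.33 and 3.53. The list gave 10 genes higher and 1 lower with 75th percentile scaling and 6 higher and 2 lower without replicate 1 at 11 °C.

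Of 21 genes with a known response to cold in flies, 5 rose and 4 fell, and the median of -0.23 was near that of all genes and turned to 0.02 with 75th percentile scaling. P5cr, which encodes the last enzyme of proline synthesis, had 11.03, 11.13 and 11.38 at 11 °C, against 13.44, 13.58 and 13.53 at 25 °C (5.05-fold lower, adjusted p = 1.68e-07), and slgA, the proline dehydrogenase gene, had 10.88, 10.70 and 10.91 at 11 °C, against 12.96, 12.40 and 12.45 at 25 °C (3.42-fold lower). The glycogen synthase gene Glys (2.17-fold) and Pepck1, a gene of gluconeogenesis (2.11-fold), were also lower. smp-30, a calcium-binding protein gene, had 11.48, 11.32 and 11.43 at 11 °C, against 9.88, 9.70 and 9.66 at 25 °C (3.17-fold higher, adjusted p = 1.04e-06). pst rose 2.27-fold, and the clock gene per had 6.50, 6.63 and 6.12 at 11 °C, against 4.86, 4.39 and 4.58 at 25 °C, with its 2 probes at 0.53 and 3.08. Clk was called higher too, but its signals of 3.61, 3.46 and 3.17 at 11 °C were too near background to give a fold. The study had described pst as raised by cool in S2R+ cells, in part from the same samples. The rise of pst, and its place in the count of this list, are therefore not independent evidence.

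Enzyme families of metabolism and detoxification split into rising and falling members. In glycine cleavage and one-carbon metabolism 3 of 18 genes rose, namely CG3999, the glycine N-methyltransferase gene Gnmt (4.53-fold, adjusted p = 1.61e-06) and the folate enzyme gene Fpgs1 (2.68-fold), and CG11899 fell 2.44-fold, while the median was -0.44. Without replicate 2 or 3 at 11 °C or replicate 1 at 25 °C 2 members were called lower. Of 7 alpha-esterase genes, alpha-Est8 rose and 4 fell, so that the median was -1.50. alpha-Est3 had 6.85, 7.18 and 7.13 at 11 °C, against 9.25, 9.11 and 9.04 at 25 °C (4.24-fold lower, adjusted p = 6.02e-07), and alpha-Est7 had 10.64, 10.43 and 10.79 at 11 °C, against 12.34, 12.06 and 12.02 at 25 °C (2.86-fold lower). Both genes lie on chromosome arm 3R, as does alpha-Est8. Of 47 cytochrome P450 genes, 9 rose and 8 fell. Cyp6a2 (log2 change 1.57), Cyp12e1 (1.34) and Cyp28d2 (1.31) rose and Cyp6t1 (-1.77), Cyp4d2 (-1.70) and Cyp6a22 (-1.61) fell, each measured on all 6 arrays. Among 36 genes of oxidative stress, 3 rose (8.33%, near the 8.39% over all genes) and 2 fell. Keap1, the sensor that holds back the Nrf2 factor of the fly (2.64-fold), GstD1 (2.21-fold) and, narrowly, the ferritin gene Fer2LCH (log2 change 1.01) rose, and the peroxiredoxin gene Prx6a (3.14-fold) and maf-S, which encodes the partner of that factor (2.34-fold), fell. maf-S was at -0.98, short of 2-fold, with 75th percentile scaling, and GstD1 was at 0.94 without replicate 1 at 11 °C. Without that array, and also without replicate 2 or 3 at 25 °C, 2 genes of the list were called higher, while spike-in scaling gave 5 higher and 1 lower.

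The lists of genes for mitochondrial proteins had medians below that of all genes, with few members past 2-fold. The list of oxidative phosphorylation holds nuclear genes and also genes of the mitochondrial genome, such as COX1 and ND5. These lists were also examined by the study on the same samples and are not independent evidence of a direction. Of 65 genes of the mitochondrial ribosome, 10 fell and none rose, with a median of -0.65, and of 83 genes of oxidative phosphorylation 9 fell (10.8%, near the 11.1% over all genes) and none rose, with a median of -0.57. The medians stayed negative, at -0.35 and -0.27, with spike-in scaling, while the counts became 3 lower for each. mRpL36 had 11.31, 11.63 and 11.68 at 11 °C, against 13.31, 13.52 and 13.42 at 25 °C (3.67-fold lower, adjusted p = 2.07e-06), and Cox11, an assembly factor of cytochrome c oxidase, had 9.60, 9.64 and 9.62 at 11 °C, against 11.13, 11.15 and 11.12 at 25 °C (2.86-fold lower). The arrays of each group lay close together for both. None of 32 proteasome genes was called (limma), and their median was -0.46.

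Of 40 splicing and RNA-processing regulators, 4 fell, a share below the 11.1% over all genes, and none rose (median -0.46). The count was 2 lower with 75th percentile or spike-in scaling. The genes that fell included the cleavage factor gene Cpsf73 (2.65-fold, adjusted p = 1.28e-05) and the sex-determination splicing gene tra (2.47-fold). The other pair, glo and Srp54, passed 2-fold narrowly, and without replicate 2 at 11 °C or replicate 1 at 25 °C 2 genes were called lower. Of 51 genes in the list of ribosome biogenesis, the only one called was Rrp1 (2.19-fold lower), which in the fly encodes a DNA repair endonuclease and entered the list by its name alone. The list median of 0.19 was above that of all genes by 0.44. Of 30 genes of folding in the endoplasmic reticulum, the chaperone cofactor gene P58IPK (2.06-fold) and the oxidase gene Ero1L (2.06-fold) were called higher and GCS2alpha, a glucosidase subunit gene, fell 3.02-fold. The rises of P58IPK and Ero1L were not called without replicate 3 at 25 °C, at 0.99 and 0.90, nor with the slide as a block, and that of Ero1L not without replicate 3 at 11 °C or replicate 2 at 25 °C either.

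Of 21 apoptosis genes, 3 rose and 1 fell (median -0.27). Buffy, of the Bcl-2 family, was at least 10.8-fold higher, with 7.75, 7.08 and 6.66 at 11 °C and no array well above background at 25 °C (adjusted p = 1.10e-06). Of the caspase genes, Damm (2.25-fold) and Decay (2.22-fold) rose and Dronc (2.10-fold) fell. Dronc was at -0.93 without replicate 1 at 25 °C, where no member was called lower, and 3 were called lower without replicate 3 at 25 °C. Of 34 tubulin and actin genes and regulators, alphaTub67C, the maternal alpha-tubulin, was at least 6.77-fold higher, and betaTub97EF, a beta-tubulin gene, had 14.22, 14.01 and 14.25 at 11 °C, against 13.22, 12.68 and 12.65 at 25 °C (2.48-fold higher, adjusted p = 2.55e-04). In all, 4 of these genes rose and 2 fell, the 2 being Map60 and stai, with 2.45-fold and 2.35-fold lower levels.

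The markers of hemocytes bore on what the cells were. Of 17 hemocyte marker genes with a probe, 10 were well above background on all arrays at 11 °C and 11 at 25 °C, and the signal summed over the list was 21570 to 27297 at 11 °C and 21280 to 26657 at 25 °C on a linear scale, most of it from pes, ush, srp and crq, none of which was called. Of the 13 markers tested, 3 were called lower (eater, He and NimC1) and none higher, with a median of -0.57, and the counts were 2 lower and 1 higher with 75th percentile or spike-in scaling. NimC1 kept its call under 6 of 24 alternatives. NimC1, NimB4, NimB5, Sr-CII and Sr-CIII were not well above background on any of the 6 arrays. eater, a phagocytic receptor gene, had 4.59, 3.00 and 4.25 at 11 °C, against 7.69, 7.99 and 7.87 at 25 °C (adjusted p = 7.40e-06), with 2 of 3 arrays at 11 °C well above background, and He, also a hemocyte marker, was 3.09-fold lower at 11 °C, with no overlap of the arrays. In bulk RNA fewer cells of a type and less RNA per cell cannot be told apart. Of 9 muscle and mesoderm markers tested, Mlc2 (log2 change 2.37) and Act57B (1.42) were called higher at 11 °C and none lower, with a median of 0.54. Act57B lost its call without replicate 1 or 3 at 11 °C and without replicate 2 or 3 at 25 °C. The list summed to 9471 to 11359 at 11 °C and 9301 to 11148 at 25 °C, most of it from zfh1 and ct, and the defining marker twi was well above background on no array. The part of these markers in the other changes was not tested.

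The direct comparison of 11 °C with 14 °C, in which replicates 2 and 3 shared a slide, asked what 11 °C added to milder cold. It called 85 genes (0.956%) higher and 111 (1.25%) lower at 11 °C. The cells at 14 °C differed from those at 25 °C by 487 genes higher (5.47%) and 420 lower (4.72%). The 3 comparisons share arrays, so their counts stand side by side and are not independent. The count at 11 against 14 °C rested on the spread shared by all 12 arrays, since with only those 6 arrays it was 1 higher and none lower (2321 genes at an unadjusted p under 0.05, limma). Without replicate 2 at 14 °C it was 30 higher and 39 lower.

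Genes called higher at 11 °C than at 14 °C included AdoR, with 6.64, 6.12 and 4.97 at 11 °C, against 3.38, 3.36 and 3.47 at 14 °C (5.68-fold higher, adjusted p = 2.94e-03). CG10026, measured on all arrays, had 10.80, 9.82 and 9.94 at 11 °C, against 8.10, 7.25 and 7.81 at 14 °C (5.53-fold higher, adjusted p = 8.86e-04), and it averaged 7.57 at 25 °C. mex1, a gene of the midgut, had 7.75, 6.51 and 6.37 at 11 °C, against 4.92, 4.18 and 4.46 at 14 °C, and 3.52, 2.23 and 3.11 at 25 °C, where it was not well above background. CG31528 (5.82, 5.63 and 5.66 at 11 °C) was 5.05-fold higher than at 14 °C, where 1 of 3 arrays was well above background, and CG16772 was at least 3.37-fold higher. All arrays at 11 °C lay above all those at 14 °C for these genes.

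In the other direction CG4238 had 6.12, 6.18 and 6.12 at 11 °C, against 8.41, 8.51 and 8.14 at 14 °C (4.64-fold lower, adjusted p = 1.87e-04), and topi had 6.32, 7.07 and 7.41 at 11 °C, against 8.65, 8.99 and 8.79 at 14 °C (3.68-fold lower). PICK1 was at least 4.04-fold lower at 11 °C than at 14 °C. Esyt2, an extended synaptotagmin gene, and PXo, a phosphate transporter gene, were called lower at weak signals, and the call of PXo (adjusted p = 8.76e-03) was lost with replicate number as a block (adjusted p = 0.012). Other genes had like changes at both low temperatures, set side by side because the arrays at 25 °C are shared. The log2 change of Lip4 was 3.60 at 11 °C and 4.01 at 14 °C, each relative to 25 °C, that of speck was -4.01 and -4.60, and that of scb was 2.25 and 2.22.

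**Figure D5:**
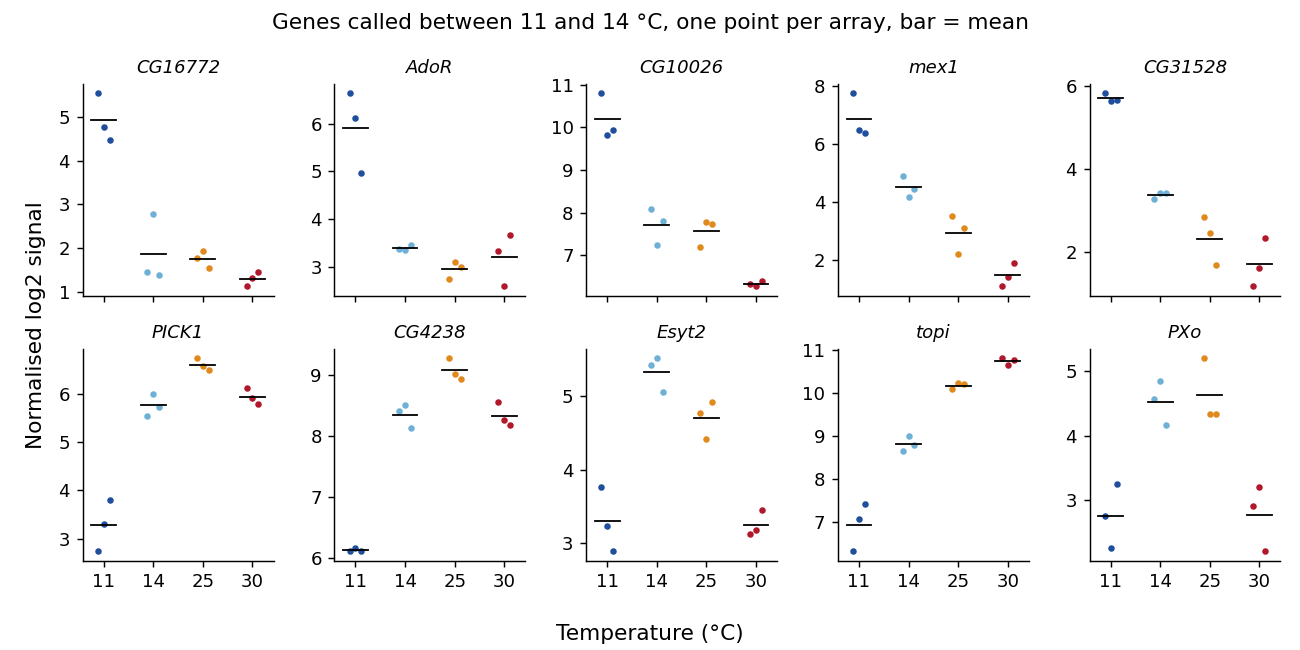
Normalised log2 signals of 5 genes that rose (upper row) and 5 that fell (lower row) between 14 and 11 °C are plotted by temperature from 11 to 30 °C. There is 1 point per array, and the mean is a bar. These genes had the largest such changes among genes also called in the same direction at 11 against 25 °C. CG4238 lies at 6.12 to 6.18 at 11 °C and at 8.14 to 8.51 at 14 °C.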

How the data were processed

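Per the file headers, each array was quantified with Agilent Feature Extraction 10.7.3.1, and the deposited scanner files hold intensity, a linear processed signal that the software had background-subtracted and detrended. The deposited value table holds log2 signals of the same arrays, which the authors had scaled by the median to the arrays at 25 °C (31676 probes). It was used as an alternative, and 99.9% or more of its values per column on the arrays at 11, 14 and 25 °C lay within 0.01 of the values used here after a shift. Neither holds comparisons.

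Of 43603 gene spots per array, 53.9 to 61.1% were well above background. The number of arrays limits the precision. Outlier and control spots were left out, spots of a probe were averaged on the log2 scale, and each array was shifted to the median of the arrays at 25 °C. A probe was kept if at least 50% of its spots exceeded background clearly on 2 of 3 arrays of any temperature and if it had values on at least 10 arrays. Of 32162 gene probes, 19488 (60.6%) matched a RefSeq gene by identifier, and probes of a gene were averaged. Bounds for genes measured in 1 group only set its mean against the lowest signal well above background per array.

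Temperatures were compared with limma 3.58.1 (R 4.3.3) over all 12 arrays, tested on simulated data. Groups came from the sample titles. Deviations from group means of same-numbered arrays correlated at 0.38, 0.12 and 0.17 (11 and 25 °C) and 0.57, 0.16 and 0.24 (11 and 14 °C). Replicates 2 and 3 correlated about as well crosswise (0.16 and 0.19, and 0.18 and 0.23). The values thus set replicate 1, which shared slide 1, apart and do not show pairing by number. Alternatives were other scalings, background correction, detection filters, probe choice, thresholds, slide and replicate blocks, and leaving out arrays. The normexp background correction used median spot signals and left out spots with a local background above 500, chosen after seeing the data.

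Named in the text are, in each direction, the 10 largest changes measured on all 6 arrays, the 4 largest bounds, 5 changes between 14 and 11 °C and, per list, up to 4 called members. The 5 changes between 14 and 11 °C were the largest among genes also called in the same direction at 11 against 25 °C. Genes without that call were not eligible, whatever their change between 14 and 11 °C. Other list members were named for their role after their values were seen. Members and lists were chosen with earlier results of these data known.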

Additional observations from a re-analysis of the deposited data

How the results depend on the processing

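No alternative called a gene in the direction opposite to the main setting. Genes higher at 11 than at 25 °C (746) numbered 406 with normexp background correction, 408 with a signal above 100 required and 258 when a change beyond 2-fold was itself tested (limma treat), and genes lower (983) numbered 593 with 75th percentile scaling, 517 with spike-in scaling, 601 with the median of probes well above background on all arrays, 390 with normexp and 201 with treat. Leaving out 1 array gave 641 to 855 higher and 900 to 1132 lower. The replicate block gave 769 higher and 1028 lower and ended 1 named call against 25 °C, NimC1, and 1 against 14 °C, PXo (-1.77). It changed no other call of a named gene.

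Genes higher at 11 than at 14 °C (85) numbered 49 with spike-in scaling, 27 with normexp, 46 with no filter on dim probes, 128 with the slide block, 145 with the slide as a random block, 154 at an adjusted p under 0.05, 0 with treat, 0 with replicates 2 and 3 alone and 1 with only the 6 arrays. Genes lower (111) numbered 24 with normexp, 57 with no filter, and 0 with treat, with replicates 2 and 3 alone and with only the 6 arrays. At an unadjusted p under 0.05 replicates 2 and 3 alone gave 2527 genes and treat 87. Leaving out 1 array gave 30 to 110 higher and 39 to 181 lower.

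Of the 28 genes with the largest changes or bounds, 27 kept their call under each of the 25 or 26 alternatives in which they were measured, and CG30099 (-0.91) lost it with normexp. None of the 10 genes named for 11 against 14 °C kept it under all of theirs. With 75th percentile scaling Lsd-1 (-0.84), Rrp1 (-0.89), glo (-0.88), Srp54 (-0.77) and Dronc (-0.82) fell short of 2-fold. Apart from quantile normalisation, the scaling alternatives shift all genes by a constant per array, which moves genes near 2-fold. For dim genes, signal over background set what could be measured.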

Other observations

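Calls were also counted by chromosome arm. Of the 73 genes of the small chromosome 4 tested outside the cell cycle and chaperone lists, 9 (12.3%) were called higher at 11 °C than at 25 °C and 1 (1.37%) was called lower. On the other arms, between 7.69 and 9.01% of genes were called higher and between 9.78 and 12.6% lower. The counts were 12 and 0 with 75th percentile scaling, 13 and 0 with spike-in scaling, 2 and 0 with normexp background correction, 8 and 3 with the slide as a block and 9 and 2 with the replicate block. In the same order, the other arms had 10.1 to 11.8%, 10.4 to 12.4%, 3.98 to 5.07%, 6.87 to 7.93% and 8.14 to 9.18% of genes called higher. They had 6.31 to 7.70%, 5.16 to 6.54%, 3.77 to 5.25%, 12.7 to 17.3% and 10.4 to 13.1% called lower. No test was made of this difference, which was noticed in the data.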
